A study of Arvicanthis niloticus with 5 samples.

Results

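The sodium-potassium ATPase is the pump that exports sodium and imports potassium across the plasma membrane at the cost of ATP. Its genes were described here in RNA from whole eyes of the Nile rat (Arvicanthis niloticus), a day-active African rodent. The members were 7 genes, the beta subunits Atp1b1, Atp1b2 and Atp1b3 and the FXYD subunits Fxyd1, Fxyd2, Fxyd6 and Fxyd7. They were chosen by symbol, without regard to case, in any species column of a deposited ortholog table, and all 7 were found among 13982 named genes.

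The labels list 5 wild-type eye samples in 1 group, with no other genotype, treatment or time, and no age is given. Per the labels' protocols, RNA of 5 rats went into a pooled library. The deposited expression table has 1 column of values, which was treated as 1 pool. There is therefore no replicate error, no test and no p-value, and values in brackets are 95% intervals that cover counting error only.

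The pump is assembled from a catalytic alpha subunit, which binds the ions and ATP, and a glycosylated beta subunit, which is needed for the alpha subunit to fold and reach the membrane. FXYD proteins are small single-span membrane proteins that associate with the pump and adjust its affinity for ions. In the eye the pump is known for sustaining the dark current of photoreceptors from their inner segments. It also serves secretion of aqueous humour by the ciliary epithelium and fluid removal from the corneal stroma by the corneal endothelium. In the lens epithelium it serves ion balance. All of these tissues are part of a whole eye, and in bulk RNA fewer cells of a type cannot be told apart from less RNA per cell.

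Levels are given as FPKM, the fragments mapped to a transcript scaled to 1000 nt of its length and to 1000000 mapped fragments, summed over the transcripts that carry the symbol of a gene. The stated depth was 64967222 mapped fragments. The 10 transcripts of the 7 genes held 63224 of them, or 0.0973%. All 7 genes were detected at FPKM 1, as were 93.2% of all named genes, so detection says little by itself.

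At the levels reported, the beta subunits were the most abundant members. Only Atp1b3 kept its place above Fxyd1 when lengths were shortened to allow for fragment size, as described below. Fxyd1 then stood at 80.5 FPKM, against 195 FPKM for Atp1b3, 78.9 FPKM for Atp1b1 and 70.2 FPKM for Atp1b2. The values that follow are those reported. Atp1b3 stood at 178 FPKM [176 to 181] on 20289 fragments. Atp1b1, the beta subunit found in most tissues, stood at 75.6 FPKM [74.4 to 76.7] on 17528 fragments, and Atp1b2, also known as the adhesion molecule on glia, at 68.0 FPKM [67.1 to 68.9] on 21453 fragments. All 3 lay far above the median of all named genes, 6.50 FPKM, with 99.0% of named genes below Atp1b3, 96.7% below Atp1b1 and 96.1% below Atp1b2. By rank these were places 140, 460 and 549 among the 13982 named genes.

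Atp1b3 was 2.36-fold [2.31 to 2.41] above Atp1b1, a log2 ratio of 1.24 [1.21 to 1.27], and 2.62-fold [2.57 to 2.67] above Atp1b2. Atp1b1 was 1.11-fold [1.09 to 1.13] above Atp1b2, a small difference that exceeded counting error. Of the summed beta level of 322 FPKM, Atp1b3 held 55.4% [55.0 to 55.8], Atp1b1 23.5% [23.1 to 23.8] and Atp1b2 21.1% [20.8 to 21.4].

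The place of Atp1b2 below the other beta subunits came from the division by length, while Atp1b3 was above Atp1b1 with or without it. The fragment counts of the beta subunits were close to each other, between 17528 and 21453. Their transcripts were 1750 nt long for Atp1b3, 3571 nt for Atp1b1 and 4854 nt for Atp1b2. As fragments without that division, Atp1b2 was highest and held 36.2% of the beta fragments, against 34.2% for Atp1b3 and 29.6% for Atp1b1. A single transcript carried the symbol of each beta subunit, so the way transcripts are combined does not touch these values. The lengths are those of the assembled transcripts, and a length that misses part of an mRNA would change the FPKM.

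**Figure D1:**
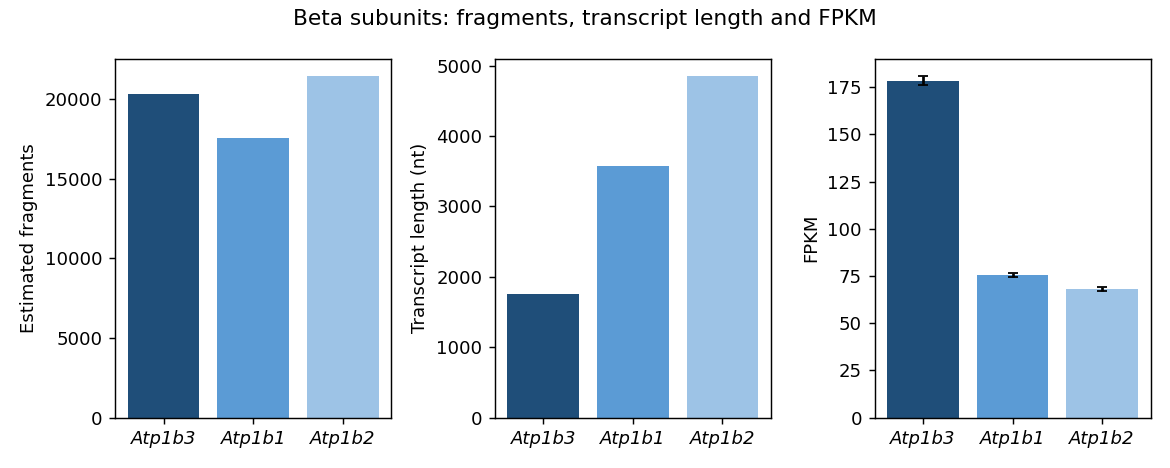
Estimated fragments (left), transcript length in nt (middle) and FPKM (right) of the 3 beta subunit genes in the eye pool; error bars on FPKM are 95% counting intervals. Fragments lie between 17528 and 21453, while the transcript of Atp1b3 is the shortest at 1750 nt and its FPKM the highest at 178.

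The naming of the beta transcripts differed in strength. The Atp1b1 transcript carried that symbol in mouse, rat and human, and the Atp1b3 transcript in mouse and rat. The Atp1b2 transcript carried a symbol in human alone, with Ensembl identifiers in mouse and rat. In all, 2 of the 10 transcripts of the 7 genes were named alike in 3 species, 2 in 2 species and 6 in a single species, and no transcript carried symbols of different genes.

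Summed over their transcripts, the FXYD members fell into an abundant pair and a low pair, although the place of Fxyd1 in the abundant pair depended on its short transcripts. With transcripts under 500 nt left out, Fxyd1 at 3.17 FPKM lay below all 3 other FXYD members. Fxyd1 (phospholemman, the main FXYD protein of heart and skeletal muscle) stood at 37.0 FPKM [34.4 to 39.9] and Fxyd6 (phosphohippolin, known from brain) at 34.4 FPKM [32.8 to 36.2]. Their ratio was 1.08-fold [0.985 to 1.17], so the pair did not differ beyond counting error. Of named genes, 91.2% lay below Fxyd1 and 90.4% below Fxyd6.

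Fxyd2, the gamma subunit best known from kidney, stood at 5.84 FPKM [5.09 to 6.66] on 219.5 fragments. Fxyd7, known from brain, stood at 4.23 FPKM [3.69 to 4.83] on 218 fragments. Both lay below the median of all named genes, with 45.9% of named genes below Fxyd2 and 34.6% below Fxyd7. Fxyd2 was 1.38-fold [1.14 to 1.66] above Fxyd7, again by length, since their fragment counts were nearly equal on transcripts of 579 and 793 nt.

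Fxyd6 was 5.90-fold [5.13 to 6.79] above Fxyd2 and 8.14-fold [7.07 to 9.37] above Fxyd7. Of the summed level of the 4 FXYD members, 81.6 FPKM, Fxyd1 held 45.4% [43.3 to 47.5], Fxyd6 42.2% [40.3 to 44.1], Fxyd2 7.16% [6.28 to 8.14] and Fxyd7 5.19% [4.55 to 5.92]. These intervals hold counting error alone, and the choice of transcripts moved the folds and the shares far more. The share of Fxyd1 was 9.11% with transcripts under 500 nt left out, 21.4% with a length-weighted mean (summed fragments over summed length) and 58.2% with effective length (150 nt taken off each transcript). Over the same settings the share of Fxyd6 lay between 32.3% and 61.9%, that of Fxyd2 between 5.69% and 16.8% and that of Fxyd7 between 3.77% and 12.2%. The summed beta members stood 3.95-fold [3.79 to 4.12] above the summed FXYD members, a log2 ratio of 1.98 [1.92 to 2.04]. That log2 ratio also depended on the transcripts. It was 1.32 with effective length, 2.69 with the highest transcript, 3.08 with a length-weighted mean and 3.21 with transcripts under 500 nt left out.

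**Figure D2:**
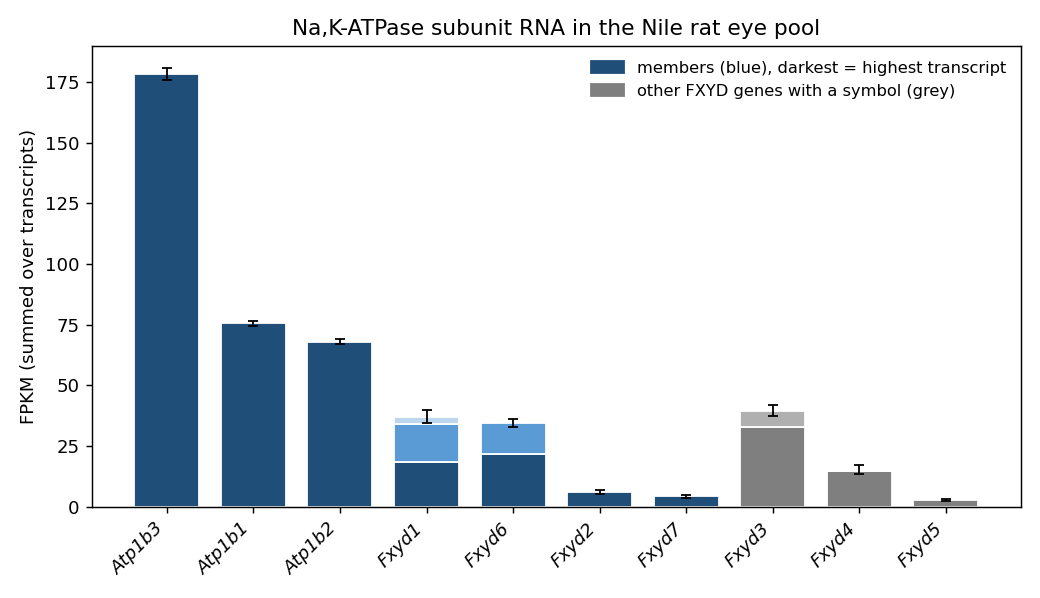
FPKM of the 7 members (blue) and of the 3 further FXYD genes that carried a symbol (grey) in the eye pool; segments of a bar are single transcripts, and error bars are 95% counting intervals of the sum. Atp1b3 is highest at 178 FPKM, and Fxyd1 and Fxyd6 are the members built from several transcripts.

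The levels of Fxyd1 and Fxyd6 are sums over several transcripts. Fxyd1 was carried by 3 transcripts. The 238 nt transcript, named in mouse, held 18.4 FPKM [16.3 to 20.6] on 284 fragments. The 350 nt transcript, named in mouse and human, held 15.5 FPKM [13.9 to 17.2] on 352.6 fragments, and the 1000 nt transcript, named in human, held 3.17 FPKM [2.75 to 3.63] on 206 fragments. The short transcripts thus gave most of the level of Fxyd1: the shortest held 49.6% and the longest 8.56%.

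Fxyd6 was carried by 2 transcripts. The transcript of 1678 nt, named in mouse, held 21.5 FPKM [20.7 to 22.4] on 2349 fragments, or 62.6% of the gene. The transcript of 388 nt, named in rat, held 12.9 FPKM [11.5 to 14.4] on 325 fragments. Unlike Fxyd1, the longest transcript of Fxyd6 was also its most abundant.

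Whether these transcripts are isoforms or pieces of 1 mRNA is not stated in any source used, and a sum is too high for pieces. With the highest transcript of each gene, Fxyd1 stood at 18.4 FPKM and Fxyd6 at 21.5 FPKM. With a length-weighted mean, which is the summed fragments over the summed length, they stood at 8.17 and 19.9 FPKM. With transcripts under 500 nt left out, Fxyd1 stood at 3.17 FPKM and Fxyd6 at 21.5 FPKM. As summed, Fxyd1 and Fxyd6 did not differ beyond counting error. With each of these 3 choices Fxyd1 lay below Fxyd6, at log2 ratios of Fxyd1 over Fxyd6 of -0.23, -1.29 and -2.76.

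An allowance for fragment size moved Fxyd1 the other way, above Atp1b1 and Atp1b2, which then stood at 78.9 and 70.2 FPKM. With 150 nt taken off each transcript length, down to no less than 50 nt, Fxyd1 stood at 80.5 FPKM and Fxyd6 at 44.7 FPKM, a log2 ratio of 0.85. The level of Fxyd1 thus lay between 3.17 and 80.5 FPKM over the choices tried, and its place between 23.7% and 96.3% of named genes below it. Over the same choices Fxyd6 lay between 19.9 and 44.7 FPKM, Atp1b3 between 178 and 195 FPKM and Fxyd7 between 4.23 and 5.22 FPKM. Among the members, the level of Fxyd1 was therefore the least well determined, and the levels of the 5 members with 1 transcript each moved far less.

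**Figure D3:**
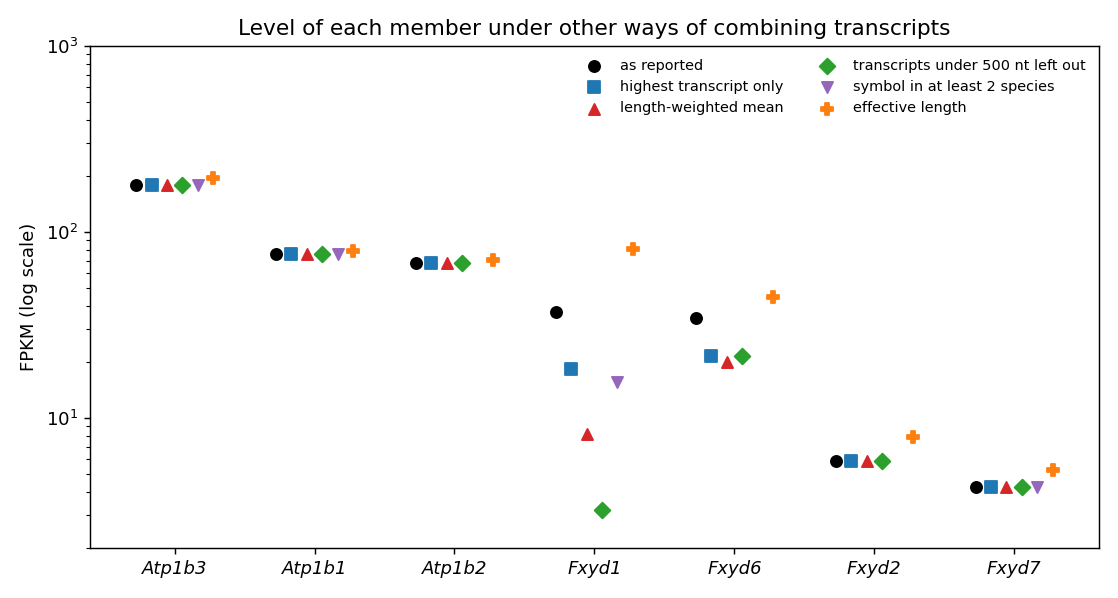
FPKM (log scale) of each member as reported and under other ways of choosing, combining or scaling its transcripts in the eye pool; a missing marker means that no transcript met the rule. The markers of Fxyd1 spread from 3.17 to 80.5 FPKM, while those of Atp1b3 stay between 178 and 195 FPKM.

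The FXYD genes that lie side by side had unequal levels. In the RefSeq annotation of the Nile rat (assembly mArvNil1.pat.X), used for gene order alone, Fxyd6 and Fxyd2 are neighbouring protein-coding genes, and Fxyd5, Fxyd7 and Fxyd1 follow one another. Summed over transcripts, Fxyd6 was 5.90-fold above its neighbour Fxyd2, a log2 ratio of Fxyd2 over Fxyd6 of -2.56. That log2 ratio was -1.88 with the highest transcript or with transcripts under 500 nt left out, and -1.77 with a length-weighted mean. Fxyd1 stood at 37.0 FPKM beside Fxyd7 at 4.23 FPKM and Fxyd5 at 2.56 FPKM. With transcripts under 500 nt left out, Fxyd1 at 3.17 FPKM lay below Fxyd7, so the contrast within the second group rests on short transcripts.

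**Figure D4:**
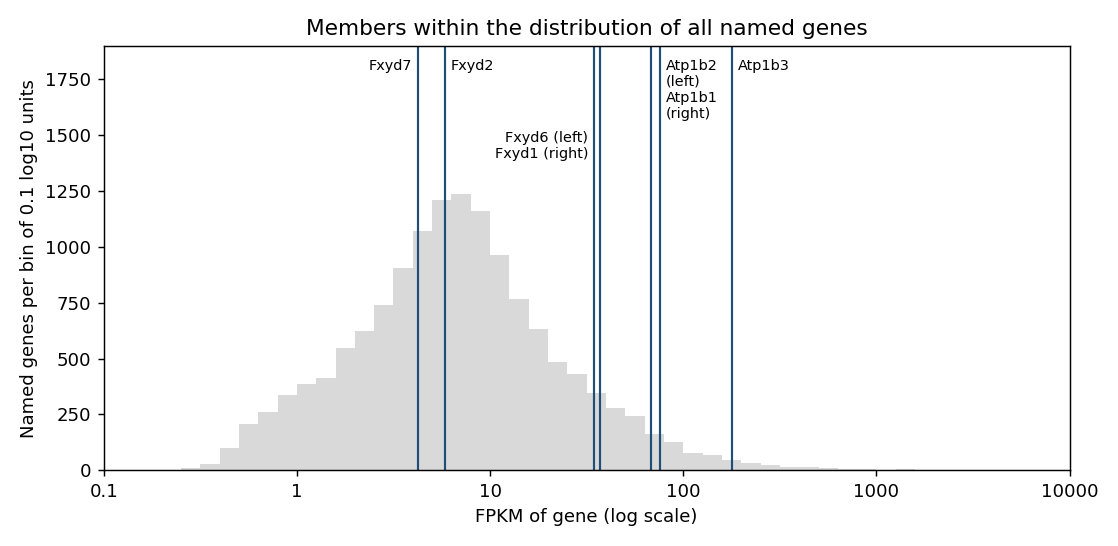
Number of named genes per bin of FPKM (log scale, grey) in the eye pool, with the level of each member as a vertical line. Fxyd7 lies below the median of 6.50 FPKM. Fxyd2 lies below it within counting error only, and the 3 beta subunits lie in the upper tail.

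Of the beta and FXYD genes outside the members, 3 of 4 were found. Fxyd3, known from epithelia, stood at 39.6 FPKM [37.5 to 41.7], summed over transcripts of 647 and 316 nt. Fxyd4, known from the kidney collecting duct and colon, stood at 15.2 FPKM [13.4 to 17.0] on transcripts of 289 and 337 nt, and Fxyd5 (dysadherin) at 2.56 FPKM [2.15 to 3.02]. No transcript carried the symbol of Atp1b4, which therefore has no level here. With these genes added, Fxyd1 held 26.7% and Fxyd6 24.8% of the 139 FPKM of the 7 FXYD genes found, and Fxyd3 held 28.5%.

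Put in order of summed FPKM, the 10 beta and FXYD genes found formed 9 neighbouring pairs, of which 7 differed beyond counting error. The exceptions were Fxyd3 and Fxyd1, and Fxyd1 and Fxyd6, so these 3 genes, between 34.4 and 39.6 FPKM, could not be ordered step by step. Fxyd3 was nevertheless 1.15-fold [1.07 to 1.23] above Fxyd6. The lowest step, from Fxyd7 to Fxyd5, was 1.65-fold [1.34 to 2.04]. This order also depends on short transcripts and on the lengths used, since Fxyd1 lay above Atp1b1 and Atp1b2 with effective length. The transcripts of Fxyd4 are all under 500 nt, and with such transcripts left out Fxyd1 at 3.17 FPKM lay below Fxyd2 and Fxyd7. Other ways of combining transcripts were not tried for Fxyd3, Fxyd4 and Fxyd5.

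Genes that act with the pump were set beside the members. Of 11 partners and regulators, 10 were found and 9 detected, with a median of 7.21 FPKM against 37.0 FPKM for the members and 6.50 FPKM for all named genes. The members' median is the level of Fxyd1 and moved with its transcripts, to 21.5 FPKM with the highest transcript or with transcripts under 500 nt left out, 19.9 FPKM with a length-weighted mean and 70.2 FPKM with effective length. The kinase gene Sgk1, whose product raises the activity of sodium transporters, stood at 86.6 FPKM, and Slc9a3r1, a membrane scaffold, at 15.2 FPKM. Nkain3, of a family of neuronal proteins that interact with the pump, was lowest at 0.718 FPKM [0.503 to 0.994]. Sgk1 thus lay between Atp1b3 and Atp1b1, while Slc9a3r1 and Nkain3 lay below every beta subunit.

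Of 14 related P-type ion pumps and their small regulators, 9 were found. These 9 were detected, at a median level of 9.88 FPKM. The calcium pumps of the endoplasmic and sarcoplasmic reticulum, Atp2a1 and Atp2a2, stood at 54.5 and 32.6 FPKM, and the Golgi pump Atp2c1 at 16.8 FPKM. The lowest was Pln (phospholamban, a regulator of Atp2a2 in heart) at 1.14 FPKM. Each of the 3 beta subunits stood above every gene of this list that was found.

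Of 20 genes of sodium-coupled transport, which uses or admits sodium moved by the pump, 16 were found. Each of these was detected, and their median level was 12.2 FPKM. The taurine transporter Slc6a6 stood at 107 FPKM and the glial glutamate transporter Slc1a3 at 79.8 FPKM. The lowest was the sodium-calcium exchanger Slc8a2 at 1.12 FPKM. Atp1b3 stood above all 16 genes, and Fxyd2 and Fxyd7 stood below their median.

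**Figure D5:**
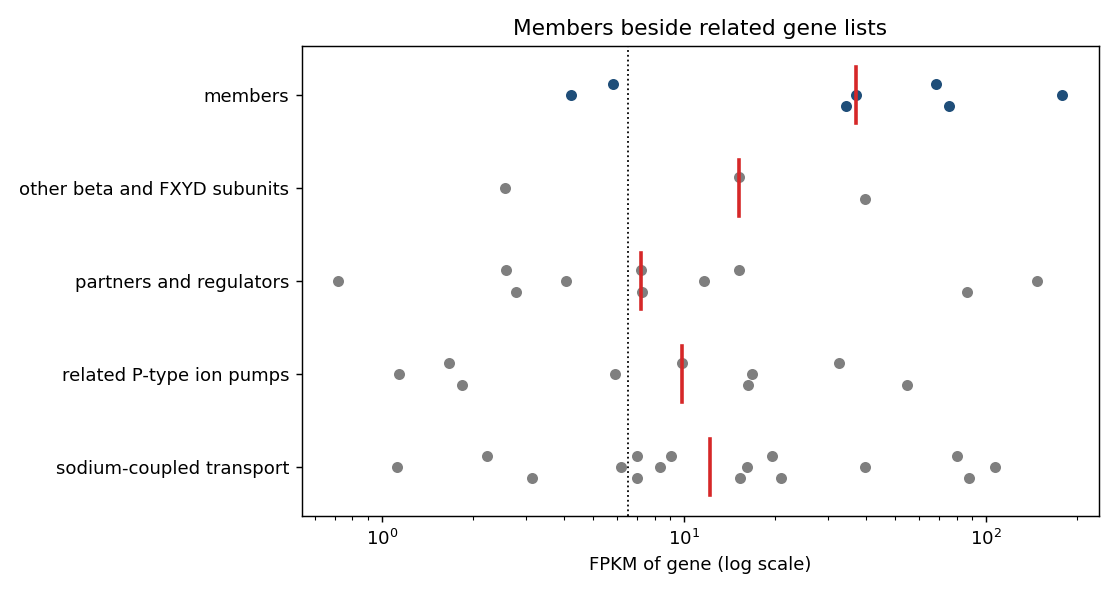
FPKM (log scale) of each gene found, for the 7 members (blue) and 4 related lists (grey) in the eye pool; red bars are medians and the dotted line is the median of all named genes, 6.50 FPKM. The members have a median of 37.0 FPKM, between 19.9 and 70.2 FPKM under other ways of choosing, combining or scaling transcripts, and the partners and regulators 7.21 FPKM.

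The labelled tissue was checked against markers of 10 cell types and tissues. Of 39 markers, 37 carried a symbol and all 37 were detected at FPKM 1, as were 93.2% of all named genes. Summed markers ranged from 75.3 FPKM for corneal endothelium to 1697 FPKM for lens fibres. The highest marker was Bfsp1 for lens (931 FPKM), Unc119 for photoreceptors (444 FPKM), Rlbp1 for Müller glia (432 FPKM), Rpe65 for retinal pigment epithelium (238 FPKM), Mal for optic nerve myelin (199.97 FPKM) and Tnnc2 for skeletal muscle (174 FPKM). It was Aqp5 for corneal epithelium (136 FPKM), Snap25 for neurons (133 FPKM), Myoc for ciliary body and iris (85.0 FPKM) and Col8a1 for corneal endothelium (54.0 FPKM). The lowest markers were Slc4a11 for corneal endothelium (6.16 FPKM) and Slc4a4 for ciliary body and iris (8.34 FPKM). Slc4a11 [5.83 to 6.51] lay below the median of all named genes, 6.50 FPKM, but not beyond counting error. RNA of markers listed for several tissues known to carry these subunits was found together, skeletal muscle included. Detection alone does not show how far a tissue was represented, and the part of each in the level of a subunit was not tested.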

How the data were processed

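RNA of Nile rat eyes was sequenced from 5 labelled samples. Per the file headers, the deposited table gives each transcript's FPKM, fragments and length. The fragments deposited by the authors are estimated counts that need not be whole; 6 of the 10 transcripts used were fractional. The FPKM deposited by the authors equals the estimated count divided by the full length and by the 64967222 mapped fragments the header states (relative deviation under 1e-05 in each of 124299 transcripts that have fragments). Fragments over all transcripts exceed that total by 2.67%. Per the submitters' processing notes, Bowtie was used. No source used here gives the build, the assembly or the counting method.

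A gene's level was the sum over transcripts carrying its symbol in any species column. Transcripts with a symbol held 47.2% of all fragments. Transcripts without a symbol entered no gene, so a level may also miss part of a gene. For the percentiles, all genes were named in the order mouse, rat, human. Level intervals are 95% gamma (Fay-Feuer) intervals and ratio intervals delta-method Poisson intervals. They hold no variation between animals, and PCR copies are not independent molecules. Fragments were also simulated as Poisson draws around the deposited counts, the same model that the intervals assume. Of level intervals over 13982 genes, 95.3% then held the true level. Of ratio intervals, 96% over 100 genes raised 2-fold and 94% over 100 raised 4-fold held the true ratio. Such draws check the calculation alone, since they hold no error from assigning fragments to transcripts.

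The members and lists were chosen with earlier results of these data known. Named are all members, the beta and FXYD genes found, and the 3 highest and the lowest gene of each other list. The highest marker of each cell type is also named, with the lowest of corneal endothelium and of ciliary body and iris. Some genes under this rule are not reported here, though they enter list counts and medians. All 7 members have a RefSeq gene of the same symbol. Alternatives were other ways to combine, filter, name and scale transcripts, a pseudocount of 1 FPKM, and detection at 0.5 or 5 FPKM. Values were computed in Python 3.11.15 with SciPy 1.17.1, pandas 2.3.3 and NumPy 2.4.6, and drawn with Matplotlib 3.10.9.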

Additional observations from a re-analysis of the deposited data

How the results depend on the processing

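Of 217 alternative values, 119 lay within the counting interval of the value reported, or within 1.5 times for a count. Naming by priority and the detection thresholds moved no ratio or count beyond this. Rescaling to TPM multiplies every level by 1 constant, so it could not move a ratio, share or percentile. The 119 include such values. They also include levels of genes with 1 transcript under other ways of combining transcripts, which could not move either. The count is therefore no measure of how robust the results are. With the highest transcript, the log2 ratio over Fxyd6 was -0.23 for Fxyd1, -1.88 for Fxyd2 and -2.35 for Fxyd7, and that of summed beta over summed FXYD 2.69. With a length-weighted mean these were -1.29, -1.77, -2.23 and 3.08. With transcripts under 500 nt left out they were -2.76, -1.88, -2.35 and 3.21. With effective length, Atp1b3 was 1.31 over Atp1b1 and 1.48 over Atp1b2, Fxyd1 0.85 over Fxyd6, and summed beta 1.32 over summed FXYD. With a pseudocount of 1 FPKM, Fxyd7 was -2.76 over Fxyd6. As fragments, the ratios of Atp1b3 over Atp1b2 (-0.080) and Atp1b1 over Atp1b2 (-0.29) turned, by the lengths alone. Atp1b3 over Atp1b1 was then 0.21, Fxyd1 over Fxyd6 -1.67, Fxyd2 over Fxyd6 -3.61, Fxyd7 over Fxyd6 -3.62, Fxyd2 over Fxyd7 0.0093 and summed beta over summed FXYD 3.91. Under a symbol shared by at least 2 species, Atp1b2, Fxyd2 and Fxyd6 gave no value. No paired analysis was possible because the table has no column per sample, so leaving out samples was not run either. Fxyd2 and Fxyd7 rest on 219.5 and 218 fragments, which limits their precision.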

Other observations

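Other P-type pumps, chosen after their values were seen, were found at lower levels than the beta subunits. Of the 15 found outside the lists, Atp13a2, a lysosomal polyamine transporter, was highest at 29.1 FPKM [28.5 to 29.8]. The flippase-family genes Atp9a and Atp11a, of the group that moves phospholipids between membrane leaflets, stood at 12.2 and 9.49 FPKM. Atp8a2, a flippase of photoreceptor outer segments in mouse, stood at 2.09 FPKM [1.91 to 2.28], and the copper pump Atp7a at 1.09 FPKM. The lowest was Atp10a at 0.958 FPKM [0.767 to 1.18].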
